A study of Homo sapiens with 9 samples.

Results

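The volume-regulated anion channel is built from the LRRC8 proteins, and its 5 genes, LRRC8A, LRRC8B, LRRC8C, LRRC8D and LRRC8E, were followed here across 9 RNA-seq libraries. They are 5 of the 58174 genes in the deposited table, each found as 1 row by its gene name, and 3 of them (LRRC8A, LRRC8D and LRRC8E) were among the 14118 genes abundant enough to test. The family was selected on the measured TPM of these same libraries. Since the comparison used is not recorded, all 3 are counted as used, and the values of its members are given as a description with no test. Abundance is in TPM, transcripts relative to the library total, which the authors scaled for transcript length and within each library. Levels of different genes can therefore be set beside each other.

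LRRC8 proteins are membrane proteins with leucine-rich repeats that assemble as hexamers and open when a cell swells, letting chloride and small organic solutes out. LRRC8A, also called SWELL1, is the subunit without which no channel reaches the cell surface, and it has to combine with at least one of LRRC8B to LRRC8E to give a normal channel. The partner sets what passes: channels with LRRC8D carry larger and uncharged molecules such as taurine, myo-inositol and platinum drugs, and LRRC8A with LRRC8E or LRRC8C carries cyclic GMP-AMP, the messenger of the STING pathway. LRRC8B contributes little to swelling-activated current on its own.

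The groups were 3 libraries from cells overexpressing NFE2L1, 3 from cells overexpressing the form labelled NFE2L1DC, and 3 from control cells that the labels call WT and the protocol names by the vector pLVX, a lentiviral plasmid. NFE2L1 is a transcription factor of the endoplasmic reticulum membrane best known for inducing proteasome genes, and in the protocol the second form carries a delta. The promoter of the transgenes, and whether each line is 1 clone or a pool, were stated in no source used here. All cells are labelled HepG2, a line from a human liver tumour, and were kept in high-glucose medium with serum.

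The overexpressed gene followed the labels. NFE2L1 was at 207.3, 180.6 and 354.3 TPM in the NFE2L1 libraries, at 444.9, 426.7 and 472.1 TPM in the NFE2L1DC libraries and at 104.2, 81.7 and 64.0 TPM in the control libraries. The liver markers went against the name HepG2. None of 9 hepatocyte markers reached 1 TPM in any library, and ALB, APOB, TTR, SERPINA1 and FGB were listed at 0 in all 9. The 9 markers summed to 0.0652 to 0.319 TPM in NFE2L1, 0.0578 to 0.227 TPM in NFE2L1DC and 0.0452 to 0.114 TPM in control. The 5 fibroblast markers summed to 927 to 966 TPM in NFE2L1, 831 to 1107 TPM in NFE2L1DC and 889 to 965 TPM in control, mostly the filament gene VIM, with COL1A2 listed at 0 throughout. COL3A1 was at 69.9 to 77.3 TPM in NFE2L1, 61.3 to 74.8 TPM in NFE2L1DC and 99.8 to 114.1 TPM in control. All 3 endothelial markers stayed under 1 TPM, as did the leukocyte markers PTPRC and CD3E, and the lysosomal gene CD68 was at 33.8 to 41.7 TPM in NFE2L1, 24.5 to 26.4 TPM in NFE2L1DC and 22.1 to 23.0 TPM in control. The part of these levels in the results was not tested, and the libraries are called by their transgene below. The difference of control replicate 3 from control replicates 1 and 2 tended to fall as the GC content of genes rose. Spearman's rho was -0.668 over 11445 protein-coding genes, a description, since genes are no replicates. Each library had between 13057 and 13950 genes at 1 TPM or more. Both ends were controls, with control replicates 1 and 2 lowest at 13057 and 13072 and control replicate 3 highest.

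LRRC8D was the member that differed most between the groups, and it did so in both overexpressing lines. It lies on chromosome 1 (ENSG00000171492, GRCh38, 89821014 to 89936611, plus strand), and the whole of its longest annotated coding sequence, 2574 bases, lies in 1 exon. The sequences around its start sites are shown first because LRRC8D had the largest difference from control among the tested members in both overexpressing lines. They are followed by the window of LRRC8C, its neighbour on the same strand, with TPM near 0, and that of LRRC8A, the abundant subunit. Each is a RefSeq window (GRCh38.p14, plus strand) from 250 bases before to 50 bases after an annotated start, in lower case, with motif matches in capitals.

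LRRC8D upstream start, chr1:89820782-89821081: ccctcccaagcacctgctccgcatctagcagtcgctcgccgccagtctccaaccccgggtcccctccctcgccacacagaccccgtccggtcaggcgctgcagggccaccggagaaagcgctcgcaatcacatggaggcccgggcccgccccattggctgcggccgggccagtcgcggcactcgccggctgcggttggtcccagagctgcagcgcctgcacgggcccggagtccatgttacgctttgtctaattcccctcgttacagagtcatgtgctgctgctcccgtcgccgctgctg
LRRC8D downstream start, chr1:89821689-89821988: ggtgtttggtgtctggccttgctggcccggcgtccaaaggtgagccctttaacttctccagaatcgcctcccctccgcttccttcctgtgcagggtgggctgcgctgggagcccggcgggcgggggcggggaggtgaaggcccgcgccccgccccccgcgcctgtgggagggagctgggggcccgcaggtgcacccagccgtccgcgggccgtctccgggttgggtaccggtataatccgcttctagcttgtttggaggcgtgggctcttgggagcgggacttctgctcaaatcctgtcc
LRRC8C, chr1:89632870-89633169: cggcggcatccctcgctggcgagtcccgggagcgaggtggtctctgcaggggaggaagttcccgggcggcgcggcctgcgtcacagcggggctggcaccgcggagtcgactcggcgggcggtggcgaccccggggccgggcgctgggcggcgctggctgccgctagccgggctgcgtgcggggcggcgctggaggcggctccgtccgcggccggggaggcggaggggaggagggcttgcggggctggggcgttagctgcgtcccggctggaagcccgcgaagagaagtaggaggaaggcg
LRRC8A upstream start, chr9:128881883-128882182: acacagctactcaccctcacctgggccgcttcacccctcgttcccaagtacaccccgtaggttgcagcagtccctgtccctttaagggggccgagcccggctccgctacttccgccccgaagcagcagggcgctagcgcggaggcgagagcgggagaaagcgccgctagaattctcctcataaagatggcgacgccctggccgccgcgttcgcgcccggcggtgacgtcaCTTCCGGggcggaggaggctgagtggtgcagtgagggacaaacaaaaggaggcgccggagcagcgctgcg

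Neither LRRC8D window held a match to any of 5 motifs searched on both strands, so neither carries capitals. The motifs were the antioxidant response element core TGACNNNGC, which cap'n'collar factors such as NFE2L1 bind with small MAF proteins and which 13.4% of 35116 RefSeq windows of the same length hold, and the AP-1 site TGANTCA, held by 7.71%. The others were the interferon response element core GAAANNGAA (8.11%), the ETS site CCGGAAG (10.3%) and the E-box CACGTG (7.26%). The antioxidant and AP-1 motifs share their first 3 letters and can overlap. The LRRC8C window held none of the 5 either. The capitals in the LRRC8A window are an ETS site on the minus strand, starting 20 bases before the start. A second LRRC8A window held 1 interferon element core, and the LRRC8B and LRRC8E windows held 1 AP-1 site each, TGAGTCA and TGACTCA. No match here says only that these letters are not in these windows. Both LRRC8D windows were 69.0% G and C, with 29 and 24 CG dinucleotides, beside medians of 58.7% and 14 over all windows.

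LRRC8D was at 18.8, 21.5 and 19.1 TPM in the NFE2L1 libraries, at 19.2, 17.2 and 16.0 TPM in the NFE2L1DC libraries and at 4.10, 6.20 and 4.43 TPM in the control libraries. Every library of both overexpressing lines lay above every control library, with no overlap. The means were 19.8 ± 1.47 TPM in NFE2L1, 17.5 ± 1.62 TPM in NFE2L1DC and 4.91 ± 1.13 TPM in control (SD, n = 3 each). These are ratios of mean TPM of 4.03 for NFE2L1 over control and 3.56 for NFE2L1DC over control. On log2(TPM + 1), a scale that shrinks the differences of scarce genes, the log2 differences were 1.83 (SE 0.15) and 1.66 (SE 0.15). They ranked 45th and 16th from the highest of 14118 genes, beside medians over all tested genes of 0.17 and 0.12. Since the family was chosen on these values, the ranks are a description only. Both differences were computed against the same 3 control libraries. Reads from more cells expressing a gene and from more RNA per cell cannot be told apart in these bulk libraries.

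Between the overexpressing lines the ranges of LRRC8D overlapped. NFE2L1 was at a ratio of 1.13 to NFE2L1DC, a log2 difference of 0.17. NFE2L1 mRNA itself had a ratio of 0.552 between the same 2 lines, the lower value in the NFE2L1 line. LRRC8D thus had the higher mean in the line with the lower mean TPM of NFE2L1, within its own spread. That difference of NFE2L1 was not called (limma, log2 difference -0.92, SE 0.24, adjusted p = 0.228). NFE2L1 replicate 3, at 354.3 TPM, was the highest library of its line.

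Over 17 alternatives the log2 difference of LRRC8D from control lay between 1.66 and 2.01 for NFE2L1 and between 1.55 and 1.83 for NFE2L1DC. Changing only the filter, adding the replicate block, fitting 2 groups alone or leaving out a library of the third group cannot move it. The range thus comes from the pseudocounts, the scaling, the GC correction and leaving out libraries of the 2 groups compared. It describes values by which the family was chosen and is no separate support. Control replicate 3, which stands apart in GC content, was at 4.43 TPM, between the other 2 controls, and without it the differences were 1.78 and 1.60. As a description, 1 of the 3 tested members was called higher against control in each line, LRRC8D both times. Calls were made with limma at an adjusted p under 0.05, and over all tested genes they took in 10.4% with NFE2L1 (7.83% higher, 2.57% lower) and 3.61% with NFE2L1DC (2.06% higher, 1.54% lower). Because the choice of the family used these contrasts, nothing is read from that count. No member was called between NFE2L1 and NFE2L1DC, where 0.793% of genes were (0.715% higher, 0.0779% lower).

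**Figure D1:**
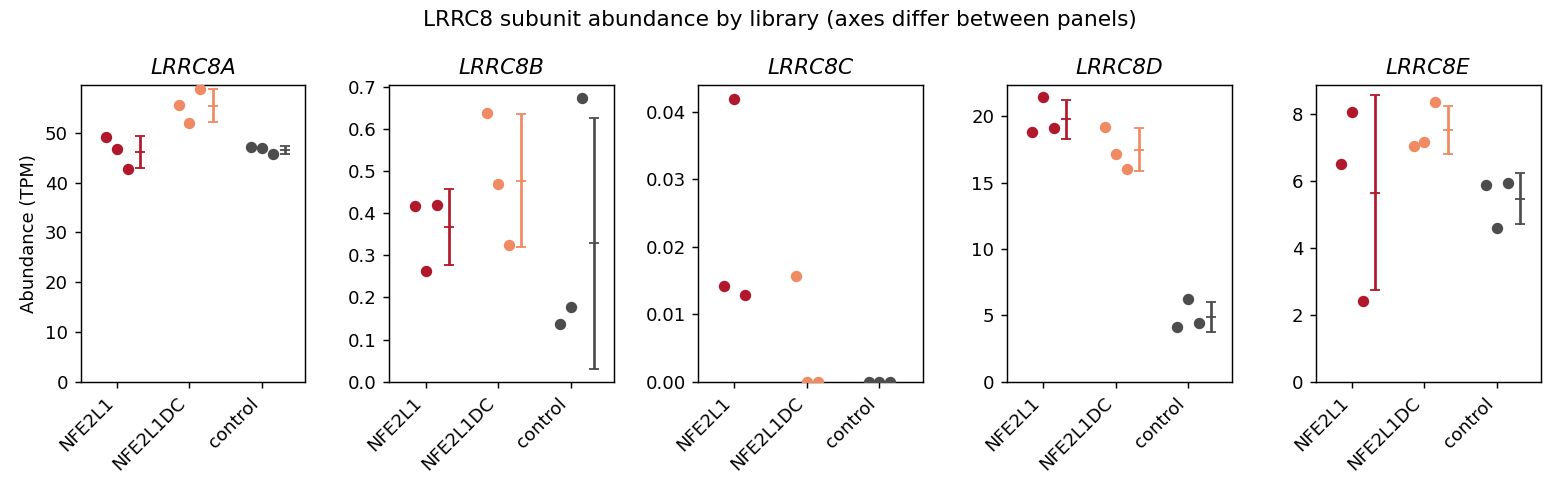
Abundance in TPM (y axis, from 0, scaled separately in each panel) of the 5 LRRC8 subunit genes in each of 3 NFE2L1, 3 NFE2L1DC and 3 control libraries (points), with the mean and SD of each group (bars, not drawn for LRRC8C). All 6 LRRC8D points of the overexpressing lines, from 16.0 to 21.5 TPM, lie above the 3 control points, from 4.10 to 6.20 TPM.

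LRRC8A, the obligatory subunit (ENSG00000136802, GRCh38 chromosome 9, 128882112 to 128918039, plus strand), was the most abundant member in every library and varied little. It was at 49.1, 46.7 and 42.7 TPM in the NFE2L1 libraries, at 55.7, 52.0 and 58.7 TPM in the NFE2L1DC libraries and at 47.2, 47.0 and 45.7 TPM in the control libraries. The NFE2L1 and control ranges overlapped, while every NFE2L1DC library lay above every other library. The ratio of means was 0.990 for NFE2L1 over control (log2 difference -0.02) and 1.19 for NFE2L1DC over control (0.24), and LRRC8A was called in neither. The second was 0.12 under median-of-ratios scaling, which lowered the median of all genes to 0.02, beside 0.12 as deposited, and 0.34 after a correction for GC content. For NFE2L1 over control those 2 settings gave -0.20 and 0.13. Its sign thus turned under the GC correction, not under the scaling, and it also turned without NFE2L1 replicate 3 (0.04).

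The 5′ end of LRRC8A overlaps KYAT1, a kynurenine aminotransferase gene on the opposite strand, by annotation. KYAT1 averaged 36.6 ± 6.24 TPM in NFE2L1, 42.1 ± 6.99 TPM in NFE2L1DC and 45.4 ± 9.30 TPM in control (SD, n = 3 each), a different order of the groups. The sources used here do not say whether the counting used strand, so reads from the shared stretch cannot be assigned with certainty. LRRC8A shared only 2 of its 5221 distinct 31-base words with another member, LRRC8E, and LRRC8B, LRRC8C and LRRC8D shared none with any other member. LRRC8D shared 303 of 4836 words with AC093423.3, a gene annotated across both LRRC8C and LRRC8D, which was listed at 0 in 8 of 9 libraries and at 0.0345 TPM in NFE2L1 replicate 3.

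LRRC8E (ENSG00000171017, GRCh38 chromosome 19, 7888505 to 7902021, plus strand), a partner whose channels inactivate fast, was at 6.49, 8.04 and 2.41 TPM in the NFE2L1 libraries, at 7.05, 7.14 and 8.34 TPM in the NFE2L1DC libraries and at 5.88, 4.59 and 5.94 TPM in the control libraries. NFE2L1 replicate 3 held the lowest value of all 9, and the other 2 NFE2L1 libraries lay above every control library. The NFE2L1DC libraries also lay above all controls. The log2 difference from control was -0.07 for NFE2L1, and 0.35 without NFE2L1 replicate 3, and its sign also turned under the GC correction (0.08). For NFE2L1DC it was 0.40. An antisense gene, AC010336.1, shares 3188 of the 4354 words of LRRC8E, or 73.2%. It was at 0.188 TPM or less in each library, and its highest value was in NFE2L1 replicate 3, the library where LRRC8E was lowest. How the authors' counting divided reads between this pair was not tested.

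LRRC8B and LRRC8C, the members next to LRRC8D on chromosome 1, were at or near 0 and did not pass the abundance filter of 1 TPM in 3 libraries. LRRC8B (89524836 to 89597864) was at 0.417, 0.263 and 0.419 TPM in NFE2L1, at 0.637, 0.470 and 0.324 TPM in NFE2L1DC and at 0.137, 0.178 and 0.672 TPM in control. Control replicate 3 held its highest value, so the groups overlapped. LRRC8C (89633072 to 89769903), a subunit studied in T cells, was listed at 0 in 5 of 9 libraries, among them all 3 controls. It was at 0.0142, 0.0418 and 0.0129 TPM in NFE2L1 and at 0.0156, 0 and 0 TPM in NFE2L1DC.

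In both overexpressing lines LRRC8A was followed by LRRC8D, LRRC8E, LRRC8B and LRRC8C, with no overlap between the ranges of neighbours in that order. In control LRRC8E and LRRC8D lay together behind LRRC8A, at 4.59 to 5.94 TPM and 4.10 to 6.20 TPM, and did not differ beyond their spread. In control replicate 2 LRRC8D was above LRRC8E, as in the overexpressing lines, and in control replicates 1 and 3 it was below. The 5 genes summed to 72.0 ± 6.45 TPM in NFE2L1, 80.9 ± 3.63 TPM in NFE2L1DC and 57.4 ± 0.631 TPM in control (SD, n = 3 each).

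LRRC8D made up 25.1%, 28.1% and 29.6% of that sum in the NFE2L1 libraries, 23.3%, 22.3% and 19.2% in the NFE2L1DC libraries and 7.16%, 10.7% and 7.81% in the control libraries. The 3 ranges did not overlap. LRRC8A made up 61.0% to 66.1% in NFE2L1, 67.4% to 70.4% in NFE2L1DC and 80.5% to 82.3% in control. Per transcript of LRRC8A there were 0.430 ± 0.0413 transcripts of LRRC8D in NFE2L1, 0.316 ± 0.0380 in NFE2L1DC and 0.105 ± 0.0236 in control. Among the 4 partner subunits alone, LRRC8D held 77.4 ± 8.37% in NFE2L1, 68.5 ± 3.30% in NFE2L1DC and 45.7 ± 9.36% in control (SD, n = 3 each). These are shares of RNA, and protein or channel composition was not measured. They contain the LRRC8D values by which the family was chosen and have no test of their own.

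**Figure D2:**
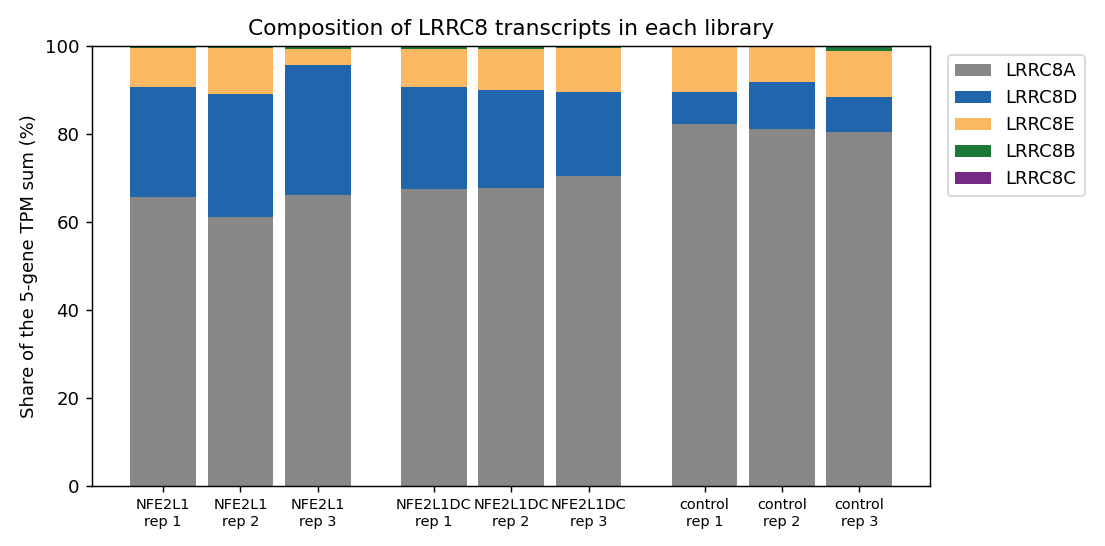
Share in percent (y axis) of each LRRC8 gene in the summed TPM of the 5 genes, one stacked bar for each NFE2L1, NFE2L1DC and control library. LRRC8D takes 19.2% to 29.6% in the overexpressing lines and 7.16% to 10.7% in control, and LRRC8B and LRRC8C are barely visible.

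LRRC8B, LRRC8C and LRRC8D lie in this order on the plus strand, with gaps of 35207 and 51110 bases between them. The neighbours of the cluster are not members of the family, but come from the same libraries. Of 23 other genes in the table within 500 kb of the 3, 3 passed the filter, and none was called in any of the 3 comparisons. Over all tested genes 10.4%, 3.61% and 0.793% were called with NFE2L1 against control, NFE2L1DC against control and NFE2L1 against NFE2L1DC. At those shares 3 genes are too few for the absence of calls to be informative. At an unadjusted p under 0.05 (limma) the numbers were 1, 0 and 0 in the same order. AC099568.2, a noncoding RNA that starts 146 bases away on the opposite strand, head to head with LRRC8D, was at 2.12, 0.850 and 2.05 TPM in NFE2L1, at 1.52, 0.539 and 1.20 TPM in NFE2L1DC and at 1.39, 2.18 and 1.28 TPM in control, with all groups overlapping. Its log2 difference from control was 0.01 with NFE2L1 (SE 0.27, adjusted p = 0.983). With NFE2L1DC it was -0.34 (adjusted p = 0.473).

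ZNF326, a zinc finger gene 58501 bases beyond LRRC8D, was at 4.59, 4.63 and 4.17 TPM in NFE2L1, at 4.51, 4.40 and 3.67 TPM in NFE2L1DC and at 1.64, 1.90 and 4.80 TPM in control. Control replicates 1 and 2 were low and control replicate 3 was the highest library of all, so the groups overlapped (adjusted p = 0.155 and 0.272 against control). This split of the controls was not present in LRRC8D.

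**Figure D3:**
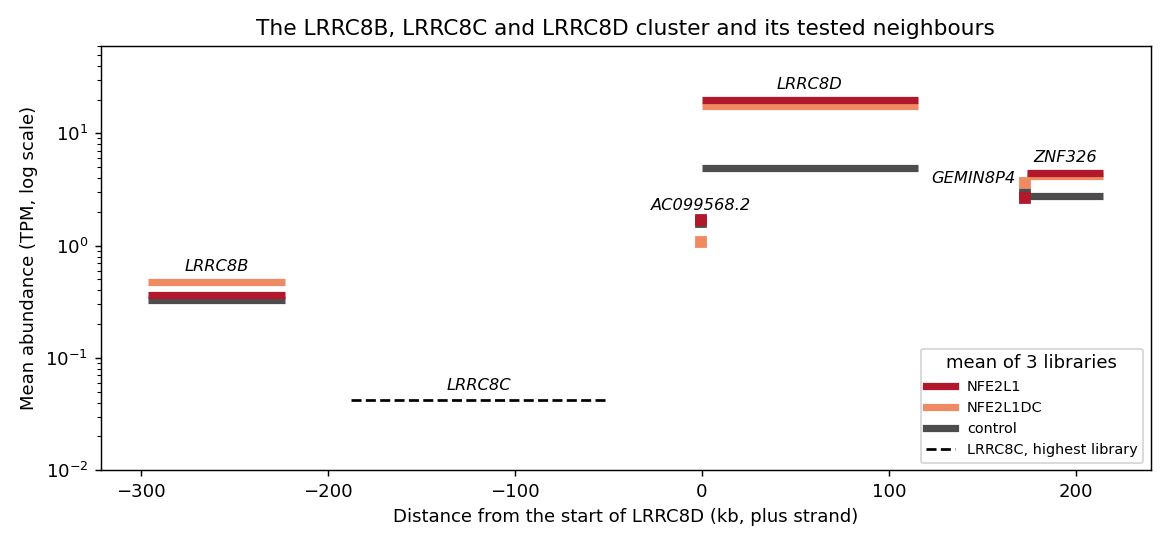
Mean TPM (y axis, log scale) of LRRC8B, LRRC8D and the tested genes near LRRC8D in NFE2L1, NFE2L1DC and control, drawn over each gene's extent as distance in kb from the LRRC8D start (squares for short genes, a dashed line for the highest library of LRRC8C). At LRRC8D the overexpressing lines are at 19.8 and 17.5 TPM and control at 4.91 TPM, the widest gap among the genes drawn that were tested.

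Around LRRC8A 29 genes within 500 kb were tested, of which DOLK, IER5L and SPOUT1 were called higher and CRAT and ZER1 lower with NFE2L1, and CRAT lower with NFE2L1DC. CRAT, carnitine acetyltransferase, was the one lower in both, at 26.0 ± 1.29 TPM in NFE2L1 and 24.9 ± 2.54 TPM in NFE2L1DC, against 39.1 ± 4.18 TPM in control (adjusted p = 0.0174 and 0.0225). Around LRRC8E, of 29 tested genes, TIMM44 and ANGPTL4 were called higher and RPS28 lower with NFE2L1, and TIMM44 higher with NFE2L1DC. Over all tested genes 10.4% were called with NFE2L1 and 3.61% with NFE2L1DC, and nothing is read from the counts of neighbours. TIMM44, of mitochondrial protein import, was higher in both lines, by 0.35 and 0.39 on the log2 scale (adjusted p = 0.0402 and 0.0491). The calls of CRAT and TIMM44 in both lines were lost without control replicate 1 and without control replicate 2. Those with NFE2L1 were also lost without any one of the NFE2L1 libraries, and those with NFE2L1DC also without NFE2L1DC replicate 2 or 3. The fit of 2 groups alone ended the CRAT call with NFE2L1DC and both TIMM44 calls. Both TIMM44 calls were also lost under median-of-ratios scaling, with no filter on low values and with the replicate block. That of TIMM44 with NFE2L1DC was lost in further settings too, among them a pseudocount of 0.1. That with NFE2L1 was also lost without NFE2L1DC replicate 2 or 3. Each of the other calls near LRRC8A and LRRC8E was lost on leaving out at least 1 library.

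The genes whose pattern over the 9 libraries was most like LRRC8D, among 8515 protein-coding genes of at least 5 TPM, were RCL1 (Pearson's r = 0.986), SUSD2 (0.984) and ZNF787 (0.980), which encode a ribosome-biogenesis factor, a membrane protein with a sushi domain and a zinc finger protein. SUSD2 was at 25.7, 24.9 and 24.8 TPM in NFE2L1, at 24.5, 24.5 and 25.6 TPM in NFE2L1DC and at 12.9, 13.8 and 11.8 TPM in control. As in LRRC8D, all libraries of both lines lay above all controls, and the size was smaller, a ratio of 1.96 for NFE2L1 over control. The correlations describe log2(TPM + 1) over libraries that fall into groups and share their scaling, so they mostly repeat the step between control and the other lines. LRRC8A was most like NUPR1 (r = 0.931), GSTM3 (0.902) and SLC29A1 (0.898), and LRRC8E most like COPS7B (0.937), INTS3 (0.935) and POLR1D (0.922). Among members r was 0.709 for LRRC8A with LRRC8E, 0.320 for LRRC8A with LRRC8D and 0.134 for LRRC8D with LRRC8E.

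Swelling-activated channels work beside other transporters of ions, water and osmolytes, and 76 such genes in 6 lists by role were examined next. Of these, 56 passed the filter. With NFE2L1, 6 were called higher and 3 lower against control. With NFE2L1DC none was called higher and 3 lower, and no gene was called between the 2 lines (3 at an unadjusted p under 0.05). One of the lower genes in each line, SLC12A7, passed the filter through the control libraries alone and so had to be lower. With a filter on the mean of all 9 libraries, which leaves it out, 8 genes were called with NFE2L1 and 2 with NFE2L1DC. The 9 calls with NFE2L1 are 16.1% of the tested list beside the 10.4% of all genes, and the 3 calls with NFE2L1DC are 5.36% beside 3.61%. Both shares of the list count SLC12A7, whose direction the filter fixed, so nothing is read from their distance from the shares of all genes. The medians were 0.23 and 0.15 on the log2 scale, beside 0.17 and 0.12 over all genes. The counts depended on control replicate 3: without it they were 21 and 16, and without control replicate 2 they were 4 and 0. The counts over all genes moved in the same way. They were 5055 and 3444 without control replicate 3, and 510 and 115 without control replicate 2, beside 1468 and 509 with all libraries. Under median-of-ratios scaling 2 were higher and 4 lower with NFE2L1 and 2 were lower with NFE2L1DC. Over all genes that scaling gave 542 higher and 526 lower with NFE2L1, beside 1105 and 363, and 119 higher and 198 lower with NFE2L1DC, beside 291 and 218. After the GC correction 1 related gene was higher and 2 lower with NFE2L1DC, and over all genes 499 were higher and 203 lower. Median-of-ratios scaling moved the median of all genes with NFE2L1 to 0.01.

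Among 10 tested genes of cation-chloride cotransport and its kinases, 2 rose with NFE2L1, and the 1 called lower in each line was SLC12A7. SLC12A7, the potassium-chloride cotransporter KCC4 that shrinks swollen cells, was at 0.560, 0.579 and 0.627 TPM in NFE2L1, at 0.463, 0.359 and 0.597 TPM in NFE2L1DC and at 1.57, 1.71 and 2.18 TPM in control. All libraries of both lines lay under all controls. Its log2 differences from control were -0.82 with NFE2L1 and -0.93 with NFE2L1DC, and since the filter fixed their direction they are given with no test. SLC4A2, the anion exchanger AE2, was at 251.8, 235.8 and 240.4 TPM in NFE2L1, against 180.5, 186.9 and 170.2 TPM in control. It rose by 0.44 (SE 0.07, adjusted p = 0.00458), a call lost under median-of-ratios scaling (0.25, adjusted p = 0.227). In NFE2L1DC it was at 215.1 ± 8.04 TPM (SD, n = 3, adjusted p = 0.0632). CAB39, the scaffold MO25 of the kinases SPAK and OSR1, rose by 0.73 with NFE2L1 (SE 0.16, adjusted p = 0.0235). With NFE2L1DC its difference was 0.63, and it was not called (adjusted p = 0.0648). The sodium-potassium-chloride cotransporter SLC12A2 stayed under the filter at means of 0.979, 0.633 and 0.371 TPM in NFE2L1, NFE2L1DC and control. WNK1, the kinase that senses chloride, averaged 52.6, 62.6 and 47.5 TPM in the same order and was not called (adjusted p = 0.623 and 0.350).

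Of 8 tested genes of organic osmolyte transport and synthesis, 1 rose with NFE2L1 and none was called with NFE2L1DC. SLC38A2, an amino acid transporter induced by hypertonicity and by amino acid shortage, was at 52.8, 42.9 and 46.6 TPM in NFE2L1, against 20.4, 15.3 and 27.9 TPM in control. It rose by 1.16 (SE 0.24, adjusted p = 0.0178). In NFE2L1DC it was at 51.1, 30.8 and 31.9 TPM, also above all controls (0.81, adjusted p = 0.0958). The taurine transporter SLC6A6, which refills a main solute of LRRC8D channels, averaged 22.9 TPM in NFE2L1, 25.2 TPM in NFE2L1DC and 18.8 TPM in control (adjusted p = 0.644 and 0.567). NFAT5, the factor that induces osmolyte genes under hypertonic stress, averaged 2.00, 1.70 and 0.981 TPM in the same order (adjusted p = 0.157 and 0.369).

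Of 18 other anion channels and chloride transporters tested, 1 was called, TTYH3, and it fell in both lines. TTYH3, of the tweety family, was at 100.9, 97.8 and 101.1 TPM in NFE2L1, at 99.4, 95.1 and 99.0 TPM in NFE2L1DC and at 136.3, 132.8 and 127.5 TPM in control, with no overlap between either line and control. It fell by 0.40 with NFE2L1 (SE 0.07, adjusted p = 0.00674) and by 0.43 with NFE2L1DC (SE 0.07, adjusted p = 0.0109). The correction for GC content ended both calls (-0.22, adjusted p = 0.125, and -0.31, adjusted p = 0.0788). TMEM206, the proton-activated chloride channel, averaged 16.4, 11.9 and 13.9 TPM in NFE2L1, NFE2L1DC and control and was not called. CLNS1A, once proposed as the swelling channel, averaged 105.7, 80.2 and 79.8 TPM and was not called. CFTR, ANO1 and BEST3 did not pass the filter.

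Of 7 tested water channels and swelling-linked cation channels, 1 rose and 1 fell with NFE2L1, and 1 fell with NFE2L1DC. AQP3, a channel for water and glycerol, was at 247.4, 245.8 and 242.5 TPM in NFE2L1, at 249.8, 282.7 and 286.5 TPM in NFE2L1DC and at 387.0, 376.3 and 354.8 TPM in control. All libraries of both lines lay under all controls. AQP3 fell by 0.60 with NFE2L1 (SE 0.07, adjusted p = 0.00111) and by 0.45 with NFE2L1DC (SE 0.07, adjusted p = 0.0131). The potassium channel KCNK5 rose by 0.49 with NFE2L1 (SE 0.12, adjusted p = 0.0398). Its difference with NFE2L1DC was 0.41 and was not called (adjusted p = 0.105). The stretch-activated channel PIEZO1 averaged 117.7, 121.9 and 116.3 TPM in NFE2L1, NFE2L1DC and control, and KCNN4 averaged 66.8, 65.4 and 64.2 TPM. Neither was called.

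The remaining lists hold genes that meet LRRC8 channels through their cargo. Of 6 tested genes of cyclic dinucleotide sensing and transport, 1 was called with NFE2L1. SLC19A1, the reduced folate carrier that also takes up cyclic dinucleotides, rose (log2 difference 0.73, SE 0.17, adjusted p = 0.0269). It was at 59.9, 37.5 and 38.6 TPM in NFE2L1, against 26.4 TPM on average in control. In NFE2L1DC it averaged 37.9 TPM and was not called (0.505, adjusted p = 0.126). The sensor MB21D1 (cGAS) and its adaptor TMEM173 (STING) were not called (adjusted p = 0.151 and 0.0987 with NFE2L1). Of 7 tested genes of platinum drug uptake and export, ABCC2, an export pump for conjugates and platinum complexes, rose with NFE2L1 to 51.9 TPM on average, against 24.9 TPM in control (1.10, SE 0.25, adjusted p = 0.0255). In NFE2L1DC it averaged 33.4 TPM, with a range that overlapped control (0.46, adjusted p = 0.307). The copper transporter SLC31A1, another route of cisplatin entry, averaged 37.4, 34.5 and 27.0 TPM in NFE2L1, NFE2L1DC and control and was not called.

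Single libraries ended most of these calls. With NFE2L1, the calls of AQP3, SLC4A2 and TTYH3 held in each fit that left out 1 library, while those of CAB39, SLC38A2, SLC19A1, ABCC2 and KCNK5 were lost without control replicate 1 and without control replicate 2, with adjusted p between 0.0555 and 0.115. CAB39, ABCC2 and KCNK5 were also lost without any one of the NFE2L1 libraries (0.0727 to 0.138), SLC38A2 without NFE2L1 replicate 1 or 3 (0.0703 and 0.0599), and KCNK5 without any one of the NFE2L1DC libraries (0.0532 to 0.0673). With NFE2L1DC, the calls of TTYH3 and AQP3 were lost without control replicate 2 (0.0558 and 0.0640), and that of TTYH3 also without NFE2L1DC replicate 3 (0.0501). Median-of-ratios scaling ended the calls of CAB39, SLC19A1 and KCNK5 with NFE2L1 (0.0517, 0.0715 and 0.125) and of AQP3 with NFE2L1DC (0.0523). Without the filter on low values those of ABCC2, SLC19A1 and SLC38A2 with NFE2L1 were lost (0.0754, 0.0698 and 0.0565). In fits of the 2 groups compared alone, those of ABCC2, KCNK5 and SLC19A1 with NFE2L1 were lost (0.0532, 0.0896 and 0.0679), as were those of TTYH3 and AQP3 with NFE2L1DC (0.0688 and 0.0704).

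**Figure D4:**
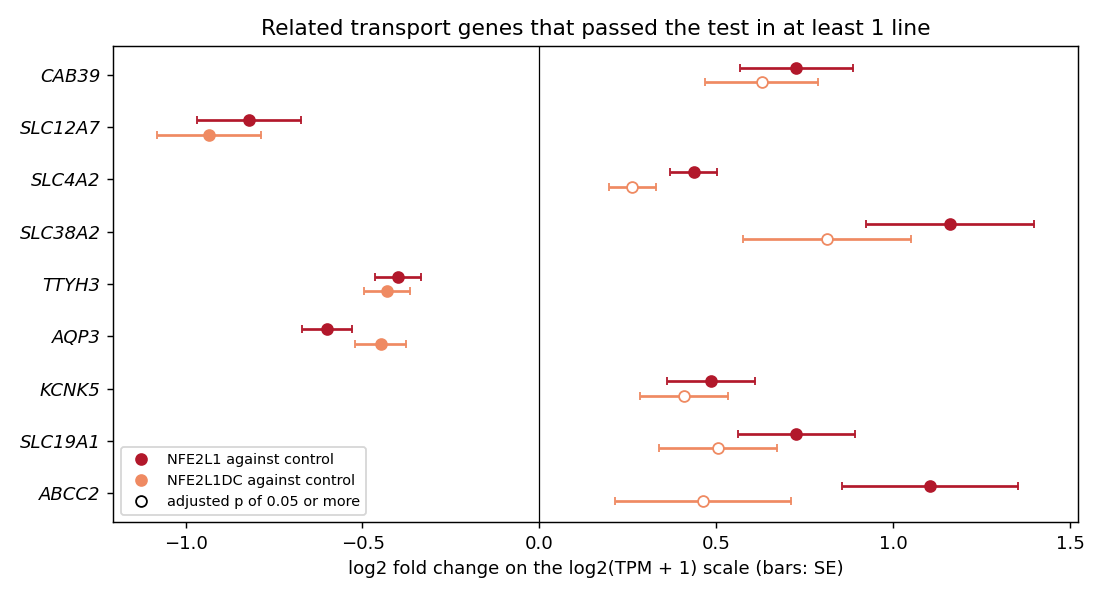
Log2 fold change against control on the log2(TPM + 1) scale (x axis) with its SE for the 9 related genes called in at least 1 line, NFE2L1 above NFE2L1DC for each gene. Filled points have an adjusted p under 0.05 and open points do not, and all 9 genes have the same sign in both lines, which share their controls. SLC12A7 had its sign fixed by the filter.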

How the data were processed

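RNA was extracted with Trizol and sequenced by a company on the platform named HiseqNOVA, per the labels' protocols. The deposited table holds TPM values, which the authors scaled for length and within each library; columns sum to between 999983.0 and 999991.7. CASAVA and GRCh38 are named in the submitters' processing notes, and no source used here names the aligner, quantifier, annotation or strandedness. TPM keeps no read counts, so depth is unknown and no counting interval is given.

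Genes at 1 TPM or more in at least 3 of 9 libraries were fitted in limma 3.58.1 (R 4.3.3) on log2(TPM + 1), with 1 mean per group over all 9 libraries, the trend option for variances (prior degrees of freedom 3.34) and 2-sided tests. P-values were adjusted by Benjamini-Hochberg over all 14118 genes. The fit was tested on simulated data. Coordinates are from GENCODE release 29 and promoter windows from RefSeq, which matched all 5 members.

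The members and lists were chosen with earlier results of these data known. Named were the members, the related genes called, the 3 most similar genes of each tested member, neighbours within 500 kb, and related genes of textbook note chosen after their values were seen. The labels do not say whether replicates were separate cultures, so p-values measure the spread between these samples, which may be technical. No library pair was identical.

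Alternatives were pseudocounts of 0.1 and 0.5, no filter or a mean of 1 TPM, median-of-ratios scaling, a GC correction, fits of 2 groups only, a replicate block and leaving out each library.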

Additional observations from a re-analysis of the deposited data

How the results depend on the processing

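The number of genes called with NFE2L1 against control was 1468, and it was 947 with no filter on low values and 848 in a fit of the 2 groups only. With NFE2L1DC against control it was 509, and it was 317 under median-of-ratios scaling and 101 in the fit of 2 groups, where none of the related genes was called with NFE2L1DC, beside 3. Leaving out 1 library at a time gave 510 to 5055 genes with NFE2L1, 115 to 3444 with NFE2L1DC and 49 to 147 between the lines, and 4 to 21, 0 to 16 and 0 related genes. The highest count above 0 in each was without control replicate 3. With a replicate block the counts over all genes were 872, 198 and 58 (112 without it), and those of related genes 7, 3 and 0, where CAB39 and KCNK5 were no longer called with NFE2L1 (adjusted p = 0.0593 and 0.0829). Libraries with the same number did not deviate together (correlations of -0.189 to 0.109 over 9 pairs, -0.182 to 0.276 over the 18 others), so the number is not treated as a pairing. The log2 differences of LRRC8D kept their sign in all 17 alternatives of each comparison, though several of these cannot move a difference of 2 group means. Leaving out 1 library of a group, an alternative chosen after seeing the data, moved the share of LRRC8D in the family sum to between 26.6% and 28.8% in NFE2L1, 20.8% and 22.8% in NFE2L1DC and 7.48% and 9.25% in control. The causes of these shifts were not tested. With 3 libraries a group and no counts, small differences of LRRC8A and LRRC8E cannot be judged, and LRRC8B and LRRC8C lie too low to compare.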
